A study of Mus musculus with 25 samples.

Results

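JAK2 V617F haematopoietic stem cells labelled as lacking Il1r1, the gene of the signalling interleukin-1 receptor, were compared between 4 weeks and 2 weeks after the start of tamoxifen. The libraries were chosen by their labels alone: 3 of 4 weeks (replicates 5, 6 and 7) and 4 of 2 weeks (replicates 1, 2, 3 and 4), which is 7 of the 25 libraries of the series. Values of single libraries are given in that order, as CPM (counts of the gene per 1000000 gene counts of the library). Both groups carry the labels SclCre, V617F, IL-1R1-/- and GFP: a tamoxifen-dependent Cre recombinase under the Scl gene's control, active in blood stem cells, a human JAK2 V617F construct, a loss of Il1r1 and a green fluorescent reporter. The libraries came from mice engrafted with marrow of such donors, in which tamoxifen was begun 16 weeks after engraftment. The loss of Il1r1 is thus labelled for the donor cells and not for the host. The cells, Lin-Sca1+cKit+CD48-CD150+ from bone marrow, were sorted straight into lysis buffer and sequenced in bulk. The other groups used here are V617F;IL-1b-/- (Il1b-null) at 4 weeks (3 libraries) and 2 weeks (4 libraries) and V617F without either deletion at 4 weeks (3 libraries) and 2 weeks (4 libraries), all labelled SclCre and GFP as well. A further 4 libraries of 2 weeks, labelled SclCre and GFP without V617F, entered only the shared fit. Samples of 2 weeks and of 4 weeks were handled in 2 batches, so the time after tamoxifen and the batch cannot be told apart in any value below. No label says that libraries of a group came from separate mice, so the p-values measure the spread between these libraries.

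JAK2 is the kinase that passes signals from the erythropoietin and interferon receptors to STAT factors, and the V617F form is active without a ligand; in blood stem cells it drives myeloproliferative neoplasms. Interleukin-1 is an inflammatory cytokine that acts through Il1r1, MyD88 and NF-kB and can push stem cells out of quiescence towards division and myeloid output. Long-term stem cells are mostly quiescent: they express few genes of DNA replication and mitosis, have low oxidative metabolism, and depend on transcription factors such as Mecom. Immediate early genes (Fos, Jun, Egr1 and their relatives) encode short-lived transcription factors and feedback regulators that are induced within minutes of a stimulus without new protein synthesis.

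Between the times, 335 of 13630 genes tested passed at an adjusted p under 0.05 (2.46%; edgeR quasi-likelihood test, Benjamini-Hochberg adjustment): 227 were higher at 4 weeks (1.67%) and 108 lower (0.792%). With upper-quartile scaling, 120 of 224 called genes were higher (53.6%, beside 67.8% of the 335), and 221 of the 224 were among the 335. The balance turned with the 2 groups fitted alone, where 14 of 39 calls were higher and 25 lower (35.9% higher), and without 3 libraries that stood apart, where 23 of 119 were higher and 96 lower (19.3% higher). Fos and Zfp36, both immediate early genes, were among the genes of lowest p and fell, while genes of DNA replication, mitosis, oxidative phosphorylation and the cytosolic ribosome were among those that rose. The median size of the called changes was log2 0.64 among the higher and log2 -1.09 among the lower genes. In 223 of the 227 higher and 104 of the 108 lower genes the times did not overlap. Over all genes tested these shares were 7.74% above and 9.02% below. A lack of overlap in a called gene is thus no separate support for it. Without an adjustment, 2632 genes (19.3%) had p under 0.05, where 682 would be reached by the number tested alone. The plot of change against level shows the calls.

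**Figure D1:**
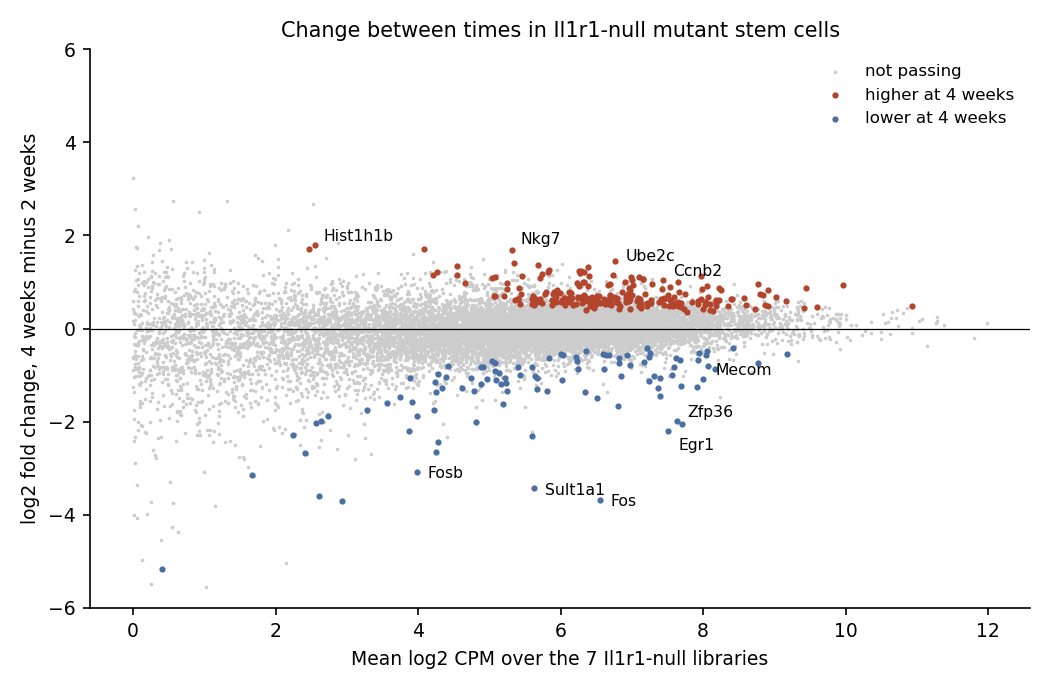
Change between times in Il1r1-null V617F stem cells. Each point is a gene with a mean log2 CPM of at least 0; the x axis is the mean log2 CPM over the 7 libraries, the y axis the edgeR log2 fold change, 4 weeks minus 2 weeks; called genes below that level are not drawn. Red and blue points passed at an adjusted p under 0.05. Fos (log2 -3.68) and Sult1a1 (log2 -3.43) lie far below 0 at intermediate levels, and the red points form a dense band of smaller changes.

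The 7 libraries held 24328608 to 27920010 gene counts at 4 weeks and 25615916 to 31238212 at 2 weeks, and 13072 to 13157 genes were detected at 4 weeks against 13225 to 13484 at 2 weeks. Among them, 4-week replicate 5 stood apart. Ribosomal protein genes took 2.12% of its counts (1.52% to 1.65% in the other 4-week libraries and 1.43% to 1.69% at 2 weeks), genes with under 2000 bases of exon took 15.5% (11.8% and 12.4%, against 11.1% to 12.3%), and its score on the first principal component of the 7 libraries was 86.5 (19.7 and 28.8, against -43.3 to -25.5). Without it, 0 genes passed as higher and 10 as lower (0% and 0.0733%, edgeR; 1639 at an unadjusted p under 0.05). They included Fos, Zfp36, Ppp1r15a, Zbtb20, Jund, Btg1, Adamts9, Sat1 and Meis3. All 227 called higher and all 108 called lower kept their direction without it, with medians of log2 0.45 and log2 -1.01. Over all genes tested, 11336 of 13630 kept theirs. This is a description and no separate support, since the genes were called on the same libraries. The higher genes were short, with a median exon length of 2319 bases against 5250.5 bases in the lower and 4348 bases in all genes, and with offsets for gene length in each library 83 genes were higher (0.609%) and 67 lower (0.492%). The part of gene length in the result was not tested beyond these counts. Leaving out any of the 2-week libraries 1 to 4 left 45, 92, 74 and 32 calls, and leaving out 4-week replicate 7 gave 827.

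The labelled cell type was checked first. All 10 stem cell markers (among them Procr, Hlf, Mecom, Mllt3, Slamf1, Kit, Ly6a, Fgd5 and Vwf) were detected in every library. Their sum was 1729 to 2336 CPM at 4 weeks and 2472 to 3112 CPM at 2 weeks, with 0 of 10 estimated higher at 4 weeks. Cd48, which the sort excludes, gave 3.99, 8.17 and 17.0 CPM at 4 weeks, against 3.39, 5.63, 1.87 and 0.608 CPM at 2 weeks (log2 1.80, SE 0.65, adjusted p = 0.122). Its estimate was higher at 4 weeks, but the times overlapped and it did not pass. Erythroid markers summed to 33.99 to 292 CPM at 4 weeks and 21.4 to 75.1 CPM at 2 weeks, with all 6 estimated higher at 4 weeks, and megakaryocyte markers to 237 to 585 CPM at 4 weeks and 127 to 238 CPM at 2 weeks, with 3 of 4 higher. The T and NK cell markers Lck and Nkg7 summed to 70.9 to 118 CPM at 4 weeks and 27.9 to 52.3 CPM at 2 weeks. The higher sum came from Nkg7. Lck overlapped, with 19.4, 15.5 and 16.2 CPM at 4 weeks, against 17.8, 20.1, 16.2 and 7.49 CPM at 2 weeks. The T cell markers Cd3e and Cd3g were not analysed here. Neutrophil and monocyte markers summed to 349 to 517 CPM at 4 weeks and 373 to 589.8 CPM at 2 weeks, with 1 of 6 estimated higher at 4 weeks. That 1 was Lyz2, which made up most of the sum (338 to 514 CPM at 4 weeks and 364 to 431 CPM at 2 weeks). Mpo, the myeloperoxidase of their granules, gave 0, 6.70 and 0.114 CPM at 4 weeks, against 35.6, 139.6, 135 and 0.480 CPM at 2 weeks, so the times overlapped. B cell markers reached 5.26 CPM at most at 4 weeks and 6.21 CPM at 2 weeks, mast and basophil markers 10.6 CPM at 4 weeks and 7.13 CPM at 2 weeks, and endothelial and stromal markers 11.2 CPM at 4 weeks and 25.6 CPM at 2 weeks. Adgre1, C1qa, C1qb and Itgax of macrophages and dendritic cells were not analysed here. In bulk samples a smaller number of cells of one kind and less RNA per cell cannot be told apart.

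Il1r1 itself (ENSMUSG00000026072, chr1:40225080-40317257, GRCm38) gave 22.3, 9.71 and 17.5 CPM at 4 weeks, against 31.1, 15.8, 31.0 and 26.5 CPM at 2 weeks (log2 -0.59, SE 0.66, adjusted p = 0.706). The libraries without this deletion held 0.299 to 24.5 CPM, the lowest in an Il1b-null library of 4 weeks. Group medians were 17.5 CPM at 4 weeks and 28.7 CPM at 2 weeks in Il1r1-null libraries, and 12.6 to 16.9 CPM in the other groups. The counts were thus not lower in the libraries labelled as lacking the gene. Counts were summed over the gene, so they do not show which exons were read and are no check of the genotype label. Il1b, the ligand, gave 3.45, 1.65 and 2.10 CPM at 4 weeks, against 0.565, 0, 0.664 and 1.02 CPM at 2 weeks (log2 2.15, SE 1.599, adjusted p = 0.523). The mouse kinase Jak2 gave 72.9, 86.4 and 92.3 CPM at 4 weeks, against 98.0, 88.7, 128 and 107 CPM at 2 weeks (log2 -0.28, SE 0.19, adjusted p = 0.460). Reads on the engineered sequences were present in all 7 libraries: the 2 human JAK2 parts averaged 149.5 ± 24.8 and 91.0 ± 8.62 CPM at 4 weeks, against 197 ± 15.2 and 108 ± 4.81 CPM at 2 weeks (SD, n = 3 and 4; exact two-sided permutation p = 0.0571 for each, the smallest that 35 divisions allow, adjusted 0.114 over 4 tests). In both parts every 4-week library was below every 2-week library. CreERT2 averaged 422 ± 25.4 CPM at 4 weeks and 460.0 ± 118 CPM at 2 weeks (SD, n = 3 and 4; exact permutation p = 0.629, adjusted 0.629). The pEGFP sequence averaged 1093 ± 232 CPM at 4 weeks and 925 ± 40.2 CPM at 2 weeks (SD, n = 3 and 4; exact permutation p = 0.171, adjusted 0.229), and the groups overlapped in both.

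Immediate early genes had the largest median change of the 32 lists. Of 39 measured, 12 fell and 0 rose (beside 0.792% and 1.67% of all genes tested), and their median log2 fold change was -1.13, beside -0.019 over all genes tested. In 19 of the 39 every 4-week library was below every 2-week library (9.02% of all genes tested). The summed level of the list was 2075, 2888 and 3145 CPM at 4 weeks, against 4229.7, 5046, 5514 and 5699 CPM at 2 weeks, so the groups did not overlap. Without 4-week replicate 5 the median was -0.93, and 4 still fell (Fos, Zfp36, Ppp1r15a and Jund).
The promoters of 3 of them are shown because the genes fell together; capitals mark CRE half-sites (TGACG on either strand, the core of the binding site of CREB and ATF factors) and the CArG box (the site named for serum response factor). Each runs from 250 bases before to 30 bases after the RefSeq start on GRCm38.p6, read 5′ to 3′ along the gene.
Fos promoter (chr12:85473640-85473919, plus strand): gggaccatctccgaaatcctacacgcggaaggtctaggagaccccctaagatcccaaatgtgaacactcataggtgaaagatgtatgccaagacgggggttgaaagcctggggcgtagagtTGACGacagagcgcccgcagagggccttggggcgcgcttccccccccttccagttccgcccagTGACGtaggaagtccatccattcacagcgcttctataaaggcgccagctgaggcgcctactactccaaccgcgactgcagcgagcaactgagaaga
Zfp36 promoter (chr7:28379199-28379478, minus strand): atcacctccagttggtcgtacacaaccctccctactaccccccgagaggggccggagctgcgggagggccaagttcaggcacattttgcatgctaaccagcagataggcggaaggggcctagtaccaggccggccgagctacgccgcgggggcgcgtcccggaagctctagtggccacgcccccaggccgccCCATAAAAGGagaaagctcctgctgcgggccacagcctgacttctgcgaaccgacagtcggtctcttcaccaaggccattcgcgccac
Dusp1 promoter (chr17:26508443-26508722, minus strand): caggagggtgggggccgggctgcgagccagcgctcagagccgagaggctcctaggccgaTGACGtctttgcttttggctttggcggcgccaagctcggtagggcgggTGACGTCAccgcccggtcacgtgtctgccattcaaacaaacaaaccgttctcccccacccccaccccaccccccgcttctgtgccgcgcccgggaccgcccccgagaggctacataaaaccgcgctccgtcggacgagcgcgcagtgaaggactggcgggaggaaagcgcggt
Fos held 2 half-sites, Dusp1 3 (a full TGACGTCA, which counts as 2, and another), and Zfp36 a CArG box. Sites further from the start were not searched, so a motif missing here may lie outside the window. Over the listed window of each gene (250 bases before to 50 after the start), 29 of the 39 genes had a promoter; 14 of 29 held a half-site (48.3%) and 2 of 29 a CArG box (6.90%), beside 30.9% and 1.34% of the 10515 promoters of all genes tested. Of the 12 that fell, 9 had a promoter, and 4 of 9 held a half-site (44.4%). Among genes that rose, it was in 5 of 8 S phase promoters (62.5%) and 10 of 22 of oxidative phosphorylation (45.5%). In G2 and M phase genes that rose it was in 4 of 16 (25%). The half-site was thus not particular to genes that fell. A match of letters is a description and not a bound site.

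Fos (ENSMUSG00000021250, chr12:85473890-85477273), the founding partner of Jun in the AP-1 transcription factor, had 6.49, 25.3 and 42.9 CPM at 4 weeks, against 152, 333, 358 and 461 CPM at 2 weeks. The lowest 2-week library was above the highest 4-week library, and 4-week replicate 5 was the lowest of all (log2 -3.68, SE 0.51, adjusted p = 0.00174, edgeR). It passed in all 17 alternatives tried, with log2 fold changes of -4.30 to -3.23. Fosb, its close relative, gave 2.84, 6.23 and 5.07 CPM at 4 weeks, against 25.1, 47.7, 47.6 and 44.3 CPM at 2 weeks (log2 -3.08, SE 0.62, adjusted p = 0.0195). Jun gave 25.0, 127 and 161 CPM at 4 weeks, against 262, 492, 475 and 527 CPM at 2 weeks (log2 -2.05, SE 0.50, adjusted p = 0.0371), with replicate 5 lowest by far. For Jund, the AP-1 member with the steadiest expression, the values were 47.9, 131 and 118 CPM at 4 weeks, against 180.2, 216, 219.9 and 275 CPM at 2 weeks (log2 -1.13, SE 0.21, adjusted p = 0.0133). None of these 4 genes overlapped between the times.

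Zfp36 (ENSMUSG00000044786, chr7:28376784-28380253) encodes tristetraprolin, which binds AU-rich messages of cytokines and speeds their decay; it had 46.4, 85.4 and 147 CPM at 4 weeks, against 277, 327, 450.1 and 468 CPM at 2 weeks (log2 -1.996, SE 0.28, adjusted p = 0.00174). Dusp1, a phosphatase that switches off MAP kinases, had 36.9, 54.3 and 83.4 CPM at 4 weeks, against 143, 177, 218 and 225 CPM at 2 weeks (log2 -1.67, SE 0.28, adjusted p = 0.00859). All 3 libraries of 4 weeks lay under all 4 of 2 weeks for both. Ppp1r15a, the phosphatase subunit that reverses the translation block of the stress response, had 62.5, 107 and 112 CPM at 4 weeks, against 231, 295, 249 and 286 CPM at 2 weeks (log2 -1.45, SE 0.22, adjusted p = 0.00412; log2 -1.26 and adjusted p = 0.0391 without 4-week replicate 5). Egr1, a zinc-finger factor that also restrains stem cell cycling and exit from marrow, gave 100.1, 96.1 and 42.0 CPM at 4 weeks, against 296, 190.1, 549.5 and 487 CPM at 2 weeks (log2 -2.20, SE 0.50, adjusted p = 0.0317). Klf6 and Ier2, an early zinc-finger factor and an early growth-response gene, changed by log2 -1.50 and -1.24 (adjusted p = 0.0127 for both). The groups overlapped in neither. Rhob, a small GTPase of the endosome, gave log2 -1.34 (adjusted p = 0.0286).

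Members of the list that did not pass included Junb, with 73.0, 111 and 116 CPM at 4 weeks, against 131, 139, 349.7 and 252 CPM at 2 weeks (log2 -1.08, SE 0.32, adjusted p = 0.0623). Btg2, an antiproliferative early gene, gave log2 -1.32 (adjusted p = 0.0828), and Nr4a1, an orphan nuclear receptor, 9.74, 16.8 and 13.0 CPM at 4 weeks, against 7.66, 13.2, 37.0 and 22.9 CPM at 2 weeks (log2 -0.57, SE 0.58, adjusted p = 0.672). The Nr4a1 groups overlapped. Junb, Btg2 and Nr4a1 were chosen after their values were seen. In V617F cells without either deletion 3 of 13630 genes passed between the times (0 higher and 3 lower, 0.022%; 1156 or 8.48% at an unadjusted p under 0.05). They were Fos (log2 -3.95), Dusp1 (log2 -2.09) and Zfp36 (log2 -1.89). In Il1b-null cells 102 genes passed (0.748%; 41 higher, 0.301%, and 61 lower, 0.448%; 2603 or 19.1% unadjusted), and 13 members of the list fell. None of the 39 passed the test of a difference in time change between Il1r1-null and either other genotype, so the fall of these genes is not shown to be particular to Il1r1-null cells.

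**Figure D2:**
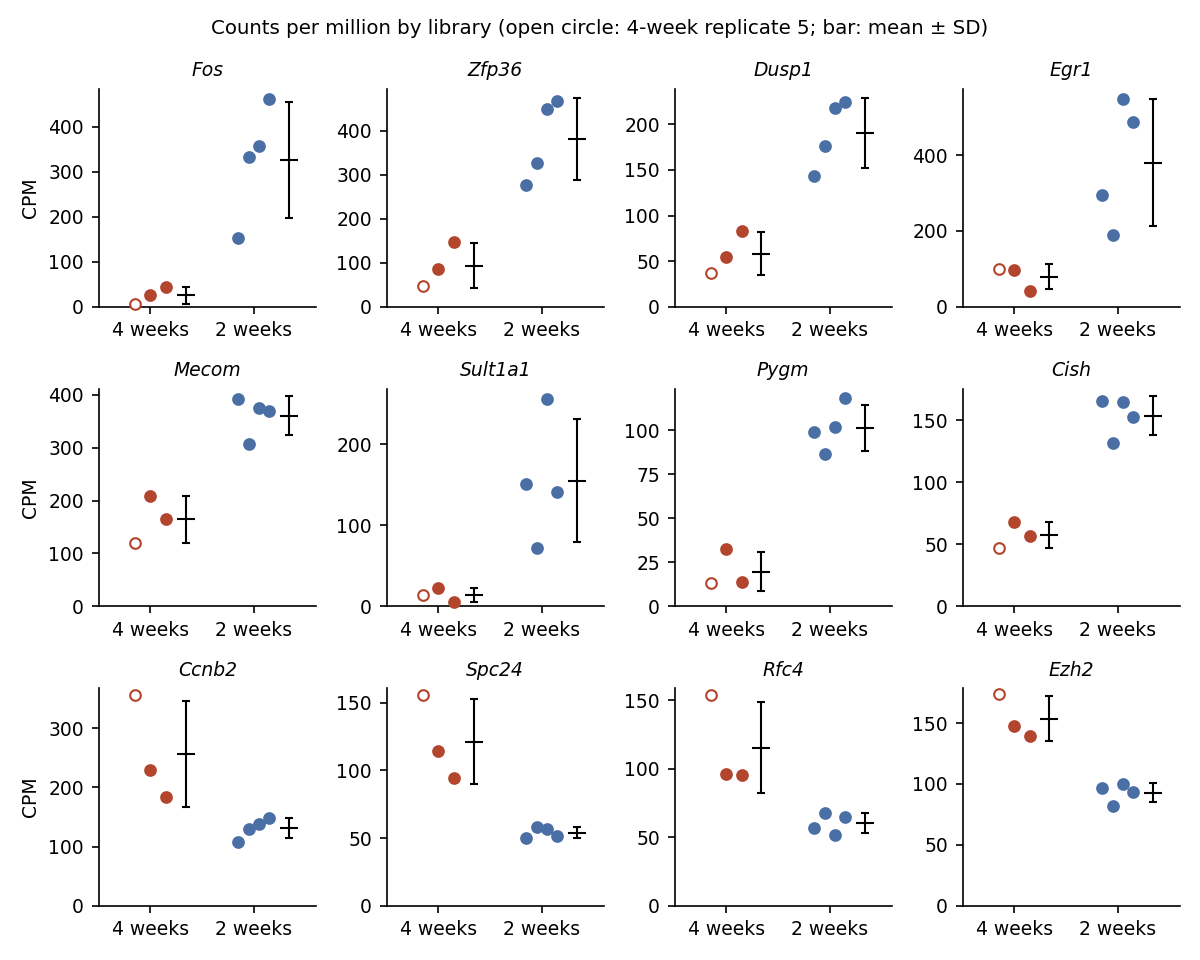
CPM of 12 genes in each Il1r1-null library. Points are libraries, 4 weeks on the left and 2 weeks on the right of each panel, with the mean ± SD beside them; the open circle is 4-week replicate 5. In Fos, Zfp36, Dusp1, Egr1, Mecom, Sult1a1, Pygm and Cish every 4-week library was below every 2-week library, and in Ccnb2, Spc24, Rfc4 and Ezh2 every one was above; Cish did not pass the test (adjusted p = 0.0513).

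Of 52 stem cell genes measured, 4 fell (Mecom, Sult1a1, Egr1 and Eng) and 0 rose, where 0.792% of all genes tested fell and 1.67% rose; the median was log2 -0.26, and 41 of the 52 estimates were below 0 (48.2% of all genes tested were above 0). Their summed level was 10324, 10755 and 10496 CPM at 4 weeks, against 12890.1, 12043, 13928 and 13271 CPM at 2 weeks, with every 4-week library below every 2-week library. Replicate 5 lay with the other 4-week libraries here, and without it the median was -0.33 and 0 passed. The sum was also lower without overlap in V617F cells without either deletion (10762 to 11417 CPM at 4 weeks, 11936 to 13523 CPM at 2 weeks). The same held in Il1b-null cells (10185 to 11690 CPM at 4 weeks, 12316 to 14067 CPM at 2 weeks). Cd48 and the erythroid, megakaryocyte and T and NK marker sums given above, the last through Nkg7, were higher in estimate in Il1r1-null cells at 4 weeks. Their part in the lower stem cell sum was not tested.

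Mecom (ENSMUSG00000027684, chr3:29951296-30548008), a zinc-finger factor that long-term stem cells need for self-renewal, had 120.4, 209 and 165 CPM at 4 weeks, against 393, 307, 375 and 369 CPM at 2 weeks (log2 -1.09, SE 0.19, adjusted p = 0.0127; log2 -0.94 and adjusted p = 0.0912 without 4-week replicate 5). No 4-week library reached the lowest 2-week library. Sult1a1 (ENSMUSG00000030711, chr7:126672865-126676432), a sulfotransferase found in stem cell signatures, had the most negative estimate of the 52, with 13.6, 22.3 and 5.64 CPM at 4 weeks, against 151, 72.2, 257 and 141 CPM at 2 weeks (log2 -3.43, SE 0.68, adjusted p = 0.0191). Here replicate 7, and not replicate 5, was lowest. Eng, the endoglin co-receptor for TGF-beta ligands, had 104, 137 and 106 CPM at 4 weeks, against 173, 199, 176 and 182 CPM at 2 weeks (log2 -0.61, SE 0.15, adjusted p = 0.0431). Procr, the EPCR surface marker of long-term stem cells, had 55.9, 40.4 and 58.5 CPM at 4 weeks, against 91.6, 142, 90.6 and 71.5 CPM at 2 weeks and missed the threshold (log2 -0.88, SE 0.35, adjusted p = 0.163), as did Fgd5, a marker of the same cells, with 15.9, 37.6 and 27.8 CPM at 4 weeks, against 51.3, 69.2, 67.2 and 55.4 CPM at 2 weeks (log2 -1.12, SE 0.41, adjusted p = 0.129). Hlf, a stem cell transcription factor, overlapped between the times, with 148, 189 and 264 CPM at 4 weeks, against 319.8, 374, 206 and 177 CPM at 2 weeks (log2 -0.38, SE 0.26, adjusted p = 0.479). Procr, Fgd5 and Hlf were picked from the marker list after their values were seen.

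Genes of DNA replication and mitosis were among those that rose. In the S phase list all 50 measured members had estimates above 0, 9 rose (Orc6, Pcna, Rfc2, Rfc3, Rfc4, Rpa3, Fen1, Dut and Slbp; beside 1.67% of all genes tested) and the median was log2 0.63. In the G2 and M phase list all 67 were above 0, 18 rose and the median was log2 0.92. No member of either list fell. S phase genes summed to 8521, 9101 and 9515 CPM at 4 weeks, against 5834, 6402, 6019.7 and 6553 CPM at 2 weeks. G2 and M phase genes summed to 11570.4, 8981 and 7258 CPM at 4 weeks, against 4751, 4709.7, 5853 and 5640.1 CPM at 2 weeks. Neither sum overlapped between the times; the G2 and M sum spread more, with replicate 5 highest and replicate 7 lowest, while in the S phase sum replicate 5 was the lowest of the 3. Every 4-week library was above every 2-week library in 33 of 50 S phase genes and 50 of 67 G2 and M genes (7.74% of all genes tested). Without replicate 5 the medians were 0.61 and 0.68, and 0 members of either list passed; replicates 6 and 7 were both above all 2-week libraries in 46 and 53 members (11.8% of all genes tested). With offsets for gene length the medians were 0.64 and 1.01, with 3 and 13 members passing. The sort excludes CD48+ cells, and Cd48 message was, like these lists, higher at 4 weeks in estimate. Within the 4-week libraries it ran opposite to the G2 and M sum and in the same order as the S phase sum. Cd48 was lowest in replicate 5 (3.99 CPM) and highest in replicate 7 (17.0 CPM). The part of Cd48+ cells in these lists was not tested.

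Mitotic promoters are known for CCAAT boxes, bound by NF-Y, and for the CHR element, through which the DREAM complex represses them in quiescent cells and MuvB with B-MYB and FOXM1 activates them in dividing cells. Those of 4 of the genes that rose are shown for that reason, with CCAAT and the CHR letters TTTGAA or TTCGAA in capitals on either strand, over the same window as above.
Ube2c promoter (chr2:164769679-164769958, plus strand): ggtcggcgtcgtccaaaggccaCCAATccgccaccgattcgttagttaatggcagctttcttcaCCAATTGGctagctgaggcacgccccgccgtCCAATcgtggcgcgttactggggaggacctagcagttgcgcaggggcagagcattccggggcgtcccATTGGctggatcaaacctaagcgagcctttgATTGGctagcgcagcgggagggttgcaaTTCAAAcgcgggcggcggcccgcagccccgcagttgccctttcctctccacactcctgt
Ccnb2 promoter (chr9:70421525-70421804, minus strand): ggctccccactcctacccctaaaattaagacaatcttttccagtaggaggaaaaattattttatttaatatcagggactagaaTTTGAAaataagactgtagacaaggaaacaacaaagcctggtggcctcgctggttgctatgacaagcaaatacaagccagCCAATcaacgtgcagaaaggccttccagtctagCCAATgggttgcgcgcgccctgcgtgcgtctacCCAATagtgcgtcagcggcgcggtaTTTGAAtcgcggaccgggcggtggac
Cdca8 promoter (chr4:124936888-124937167, minus strand): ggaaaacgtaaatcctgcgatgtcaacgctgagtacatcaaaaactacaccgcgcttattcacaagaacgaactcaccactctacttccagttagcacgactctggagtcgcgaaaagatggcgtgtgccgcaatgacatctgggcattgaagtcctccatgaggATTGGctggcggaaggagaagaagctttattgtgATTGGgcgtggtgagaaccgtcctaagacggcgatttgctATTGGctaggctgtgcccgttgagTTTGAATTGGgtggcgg
Cdk1 promoter (chr10:69352883-69353162, minus strand): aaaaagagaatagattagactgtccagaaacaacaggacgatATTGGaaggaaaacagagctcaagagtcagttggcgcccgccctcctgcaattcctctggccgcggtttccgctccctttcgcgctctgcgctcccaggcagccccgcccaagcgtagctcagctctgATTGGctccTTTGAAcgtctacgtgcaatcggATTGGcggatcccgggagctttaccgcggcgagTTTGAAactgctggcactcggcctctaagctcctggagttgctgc
Ube2c held 6 CCAAT boxes (a CCAATTGG, read on both strands, counts as 2) and 1 CHR. Ccnb2 held 3 and 2, Cdca8 4 and 1, the last CCAAT overlapping the CHR, and Cdk1 3 and 2. Of the 67 G2 and M phase genes, 56 had a promoter listed; 41 of 56 held a CHR (73.2%) and 41 of 56 a CCAAT box (73.2%), beside 14.1% and 39.0% of all 10515 promoters. Of the 18 that rose, 16 had a promoter, and 13 of 16 held a CHR. Of 41 S phase promoters, 7 held a CHR (17.1%), 25 a CCAAT box (61.0%) and 9 the E2F letters TTTGGCGC or TTTCGCGC (21.95%, beside 1.52% of all). These shares describe the lists and were not tested.

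Among the mitotic genes, Spc24 and Spc25, subunits of the NDC80 complex that holds chromosomes to the spindle, had the lowest p. Spc24 (ENSMUSG00000074476, chr9:21755442-21760303) had 156, 114 and 94.4 CPM at 4 weeks, against 49.9, 58.0, 56.6 and 51.4 CPM at 2 weeks (log2 1.24, SE 0.26, adjusted p = 0.0239). Spc25 had 176, 114 and 84.5 CPM at 4 weeks, against 46.6, 54.1, 68.0 and 55.4 CPM at 2 weeks (log2 1.23, SE 0.27, adjusted p = 0.0286). In both genes replicate 5 was highest, and replicates 6 and 7 were still above every 2-week library. Melk, a kinase of dividing progenitors, had 104, 70.1 and 40.1 CPM at 4 weeks, against 18.0, 29.6, 34.2 and 31.2 CPM at 2 weeks (log2 1.41, SE 0.32, adjusted p = 0.0304). Ube2c, which feeds ubiquitin to the anaphase-promoting complex, had 330.0, 169.8 and 91.7 CPM at 4 weeks, against 72.4, 65.2, 91.4 and 77.1 CPM at 2 weeks (log2 1.45, SE 0.38, adjusted p = 0.0453; log2 0.78 and adjusted p = 0.404 without 4-week replicate 5), so that replicate 7 stood next to the 2-week libraries. Ccnb2, cyclin B2, had 356, 229 and 183 CPM at 4 weeks, against 108, 129, 139 and 148 CPM at 2 weeks (log2 1.04, SE 0.25, adjusted p = 0.0336). Its kinase Cdk1 had 280.2, 213 and 148 CPM at 4 weeks, against 96.7, 102, 121 and 107 CPM at 2 weeks (log2 1.07, SE 0.26, adjusted p = 0.0383). Cdca8, the borealin subunit of the chromosomal passenger complex, had log2 1.11 (adjusted p = 0.0330) and Aurkb, the kinase of that complex, log2 1.16 (adjusted p = 0.0330). The proliferation marker Mki67 did not pass, with 401, 338 and 257 CPM at 4 weeks, against 219, 149, 219.7 and 218 CPM at 2 weeks (log2 0.78, SE 0.24, adjusted p = 0.0730), and nor did Top2a, the topoisomerase that untangles replicated DNA (log2 0.95, adjusted p = 0.0515), though neither overlapped between the times. Ube2c, Ccnb2, Cdk1, Cdca8, Aurkb, Mki67 and Top2a were named after their values were seen.

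Of the S phase genes, Slbp, which binds the stem-loop of histone messages, had 393, 308 and 325 CPM at 4 weeks, against 206, 219, 237 and 228 CPM at 2 weeks (log2 0.68, SE 0.14, adjusted p = 0.0205). Rfc3, a subunit of the clamp loader, had 113, 87.1 and 89.7 CPM at 4 weeks, against 58.5, 68.3, 65.2 and 59.4 CPM at 2 weeks (log2 0.69, SE 0.15, adjusted p = 0.0268). Rfc4, another subunit, had 154, 96.5 and 95.8 CPM at 4 weeks, against 56.9, 67.5, 51.9 and 64.6 CPM at 2 weeks (log2 1.01, SE 0.23, adjusted p = 0.0330). In all 3 genes the times did not overlap, and replicate 5 was the highest library. Pcna, the sliding clamp that they load, had 246, 215 and 196 CPM at 4 weeks, against 132, 146, 166 and 145 CPM at 2 weeks (log2 0.63, SE 0.15, adjusted p = 0.0336). Of the G1 regulators and quiescence factors, 32 were measured, 3 rose and 3 fell (beside 1.67% and 0.792% of all genes tested). Cdk4 rose by log2 0.45 (adjusted p = 0.0431), with 918, 748 and 718 CPM at 4 weeks, against 603, 609, 605 and 613 CPM at 2 weeks. The related kinase Cdk6 had 357, 249.7 and 456 CPM at 4 weeks, against 201, 149, 248 and 214 CPM at 2 weeks (log2 0.86, SE 0.22, adjusted p = 0.0453) and Ccnd3, a cyclin that activates both, log2 0.38 (adjusted p = 0.0480). Btg1, an antiproliferative factor, fell, with 65.4, 50.1 and 50.2 CPM at 4 weeks, against 88.2, 103, 92.9 and 88.4 CPM at 2 weeks (log2 -0.69, SE 0.15, adjusted p = 0.0271; log2 -0.88 and adjusted p = 0.0369 without 4-week replicate 5), as did Klf6 and Egr1, given above. The inhibitor Cdkn1c (p57), a keeper of stem cell quiescence, had 38.8, 32.8 and 23.8 CPM at 4 weeks, against 32.3, 47.3, 56.1 and 47.8 CPM at 2 weeks and overlapped (log2 -0.46, SE 0.30, adjusted p = 0.442). Ezh2 (ENSMUSG00000029687, chr6:47530139-47595341), the H3K27 methyltransferase of Polycomb and a gene on no cell cycle list here, had 174, 148 and 139 CPM at 4 weeks, against 96.7, 81.6, 100.02 and 93.4 CPM at 2 weeks (log2 0.79, SE 0.16, adjusted p = 0.0191).

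**Figure D3:**
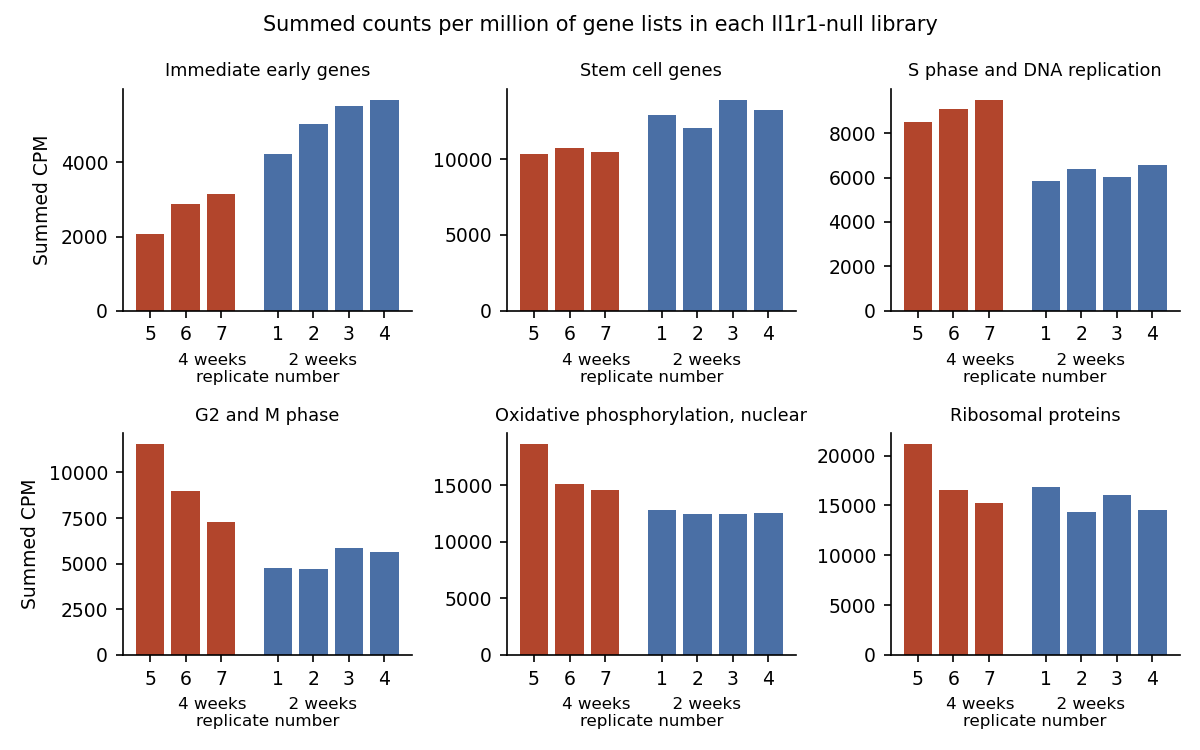
Summed CPM of 6 gene lists in each library. Bars are the Il1r1-null libraries by replicate number, the 3 of 4 weeks (red) left of the 4 of 2 weeks (blue), and all axes start at 0. Immediate early and stem cell sums were lower in every 4-week library, S phase, G2 and M phase and oxidative phosphorylation sums higher in every one, and the ribosomal protein sums overlapped apart from 4-week replicate 5 at 21183 CPM.

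Genes of energy production and protein synthesis were also among those that rose. Of 77 nuclear genes of oxidative phosphorylation 25 rose and 0 fell (beside 1.67% and 0.792% of all genes tested), with a median of log2 0.48. Of the 25, 10 encode complex I subunits (such as Ndufs7 and Ndufv1), and the others subunits of complex III, cytochrome c, complex IV and the ATP synthase. The summed level was 18648, 15081 and 14526 CPM at 4 weeks, against 12837, 12456, 12460.1 and 12503 CPM at 2 weeks, so the groups did not overlap and replicate 5 was far above the rest. Without it the median was 0.25 and 0 passed, and with offsets for gene length the median was 0.30 and 3 passed. The sum was also higher without overlap in Il1b-null cells (13694 to 14761 CPM at 4 weeks, 11103 to 12947.5 CPM at 2 weeks). The same held in V617F cells without either deletion (12867 to 14061.5 CPM at 4 weeks, 11691 to 12598 CPM at 2 weeks). Atp5e (ENSMUSG00000016252, chr2:174461072-174464105), the small epsilon subunit of the ATP synthase, had 228, 170.3 and 169 CPM at 4 weeks, against 132, 111, 129.6 and 102 CPM at 2 weeks (log2 0.73, SE 0.14, adjusted p = 0.0161). Uqcr11 and Uqcr10, small subunits of complex III, had log2 0.65 and 0.72 (adjusted p = 0.0191 and 0.0256). The 12 genes of the mitochondrial genome measured showed 0 calls and a median of log2 0.022. Of these, mt-Nd3 had adjusted p = 0.391, and mt-Nd1, likewise a complex I subunit, overlapped between the times, with 869, 656 and 618 CPM at 4 weeks, against 687, 531, 624 and 524 CPM at 2 weeks (log2 0.34, SE 0.13, adjusted p = 0.151).

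Of 80 cytosolic ribosomal protein genes 6 rose (Rpl12, Rpl27, Rpl35a, Rpl39, Rpl41 and Rps15; beside 1.67% of all genes tested), with a list median of log2 0.28 that was 0.072 without replicate 5. Rpl12 had 73.5, 57.6 and 56.3 CPM at 4 weeks, against 44.1, 42.3, 38.8 and 44.1 CPM at 2 weeks (log2 0.62, SE 0.13, adjusted p = 0.0222). Rps15 and Rpl41 had log2 0.53 and 0.54 (adjusted p = 0.0256 and 0.0308). All 3 encode short messages that many near-identical pseudogenes resemble, so reads may be shared. Of 62 MYC target and ribosome biogenesis genes 4 rose (Eif5a, Cdk4, Ran and Nme1; again beside 1.67%), and the median was log2 0.26, or 0.23 without replicate 5. Ran, the GTPase of nuclear transport, had 741, 497 and 510.2 CPM at 4 weeks, against 364, 358, 373 and 363 CPM at 2 weeks (log2 0.74, SE 0.17, adjusted p = 0.0317). Nme1, a nucleoside diphosphate kinase, had 435, 327 and 322 CPM at 4 weeks, against 256, 228, 253 and 249 CPM at 2 weeks (log2 0.62, SE 0.16, adjusted p = 0.0439). Heat shock and chaperone genes had a median of log2 0.27 over 35 members with 0 called; Tcp1 and Cct2, subunits of the chaperonin that folds actin and tubulin, came closest (adjusted p = 0.0513 and 0.0523).

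The other genes of lowest p among those that rose have varied roles. Rnaseh2c, a subunit of the enzyme that removes ribonucleotides from DNA, had 113, 94.2 and 91.4 CPM at 4 weeks, against 60.6, 67.1, 65.5 and 69.0 CPM at 2 weeks (log2 0.67, SE 0.12, adjusted p = 0.0127). Crip1, a small LIM-domain protein, had 247, 155 and 151 CPM at 4 weeks, against 101, 119, 90.3 and 92.6 CPM at 2 weeks (log2 0.94, SE 0.17, adjusted p = 0.0152). Both were above every 2-week library in each 4-week library. Meaf6, a subunit of histone acetyltransferase complexes, had 79.9, 88.7 and 83.5 CPM at 4 weeks, against 46.8, 56.3, 66.0 and 51.7 CPM at 2 weeks (log2 0.66, SE 0.13, adjusted p = 0.0161; log2 0.65 and adjusted p = 0.0808 without 4-week replicate 5), and here replicate 5 was the lowest of the 3. Nxt1, a cofactor of messenger RNA export, Ppil1, a spliceosomal isomerase, and Dctpp1, a pyrophosphatase that cleans the nucleotide pool, had log2 0.76, 0.82 and 0.95 (adjusted p = 0.0161, 0.0191 and 0.0195). Psmb5, the proteasome subunit with chymotrypsin-like activity, and Mrps28, of the mitochondrial ribosome, had log2 0.61 and 0.75 (adjusted p = 0.0165 and 0.0166), and Tmem256, a small membrane protein, log2 0.70 (adjusted p = 0.0127). None of these 9 passed without replicate 5, where their adjusted p ranged from 0.0808 to 0.187.

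The other genes of lowest p among those that fell also have varied roles. Pygm (ENSMUSG00000032648, chr19:6384399-6398459), the muscle isoform of glycogen phosphorylase, had 13.1, 32.3 and 13.7 CPM at 4 weeks, against 99.2, 86.3, 102 and 118 CPM at 2 weeks (log2 -2.32, SE 0.42, adjusted p = 0.0127). Zbtb20, a transcriptional repressor, had 140.2, 119.9 and 146 CPM at 4 weeks, against 274, 241, 258 and 224 CPM at 2 weeks (log2 -0.82, SE 0.15, adjusted p = 0.0127; log2 -0.90 and adjusted p = 0.0391 without 4-week replicate 5). Sec63, of the endoplasmic reticulum translocon, had 65.5, 82.1 and 93.3 CPM at 4 weeks, against 119, 118, 123 and 132 CPM at 2 weeks (log2 -0.56, SE 0.10, adjusted p = 0.0127). No overlap was seen between the times in these 3 genes. Zfp874a, a zinc-finger gene with close paralogues whose reads may be shared, had log2 -1.08 (adjusted p = 0.00859). Of 36 glycolysis and pentose phosphate genes 2 fell (beside 0.792% of all genes tested), Aldoc, an aldolase (log2 -1.27, adjusted p = 0.0384), and Pdk2, a kinase that holds pyruvate dehydrogenase off (log2 -0.84, adjusted p = 0.0386), and the list median was log2 -0.024. Of 40 cholesterol and fatty acid synthesis genes, Fads2, a desaturase of polyunsaturated fatty acids, fell, with 95.4, 141 and 140.3 CPM at 4 weeks, against 195, 285, 271 and 283 CPM at 2 weeks (log2 -0.99, SE 0.24, adjusted p = 0.0344). In the list of 38 endoplasmic reticulum stress genes Ppp1r15a, given above, was the 1 that fell. Of 37 p53 targets 2 fell, Trp53inp1, a stress-induced p53 cofactor (log2 -1.19, adjusted p = 0.0261), and Sesn1, a sestrin (log2 -0.63, adjusted p = 0.0317).

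Targets of the mutant kinase were read from a list of STAT5 targets and JAK feedback genes. Of 27 measured, Mcl1 fell and 0 rose (beside 0.792% and 1.67% of all genes tested), with a list median of log2 -0.28. Mcl1, a survival factor of the BCL2 family, had 179.7, 198 and 237 CPM at 4 weeks, against 303, 314, 292 and 347 CPM at 2 weeks (log2 -0.56, SE 0.11, adjusted p = 0.0191). Cish, a SOCS-family brake on cytokine receptors, had 47.2, 68.3 and 56.8 CPM at 4 weeks, against 165, 131, 165 and 153 CPM at 2 weeks: its groups did not overlap, but it missed the threshold (log2 -1.37, SE 0.37, adjusted p = 0.0513). Pim1, a survival kinase induced by STAT5, had 99.8, 82.9 and 122 CPM at 4 weeks, against 159, 228, 188 and 157 CPM at 2 weeks (log2 -0.79, SE 0.26, adjusted p = 0.0912), again with no overlap. Socs2, another feedback gene, overlapped, with 203, 243 and 229 CPM at 4 weeks, against 265, 343, 356 and 204 CPM at 2 weeks (log2 -0.32, SE 0.26, adjusted p = 0.566). The lower human JAK2 reads of the 4-week libraries, given above, moved with Cish, Pim1 and Mcl1; their part was not tested.

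Of 24 IL-1 pathway genes 0 passed, and the median was log2 -0.057. Sigirr, an inhibitory receptor of the family, had 88.2, 89.1 and 96.0 CPM at 4 weeks, against 105, 125, 113 and 119 CPM at 2 weeks (log2 -0.29, SE 0.12, adjusted p = 0.166). Il1r2, the decoy receptor, was near the limit of detection, with 0.0411, 0 and 0.0381 CPM at 4 weeks, against 0.741, 1.13, 1.05 and 0.288 CPM at 2 weeks (adjusted p = 0.155), and no fold is given for it. Of 35 NF-kB and TNF targets 3 fell and 0 rose (beside 0.792% and 1.67% of all genes tested), with a median of log2 -0.36. Their summed level was 1619.8, 1728 and 1706 CPM at 4 weeks, against 2086, 2079, 2180.1 and 1977 CPM at 2 weeks. The 3 were Nfkbiz, Traf1 and Map3k8. Nfkbiz, a nuclear IkB that is also on the immediate early list, had 8.30, 6.48 and 12.9 CPM at 4 weeks, against 23.6, 30.8, 41.5 and 33.3 CPM at 2 weeks (log2 -1.75, SE 0.34, adjusted p = 0.0191). Traf1, an adaptor of TNF receptors, had 2.63, 13.5 and 3.81 CPM at 4 weeks, against 35.7, 31.1, 28.5 and 29.5 CPM at 2 weeks (log2 -2.19, SE 0.51, adjusted p = 0.0330), and Map3k8, the TPL2 kinase, log2 -1.74 (adjusted p = 0.0336). All 3 were lower in every 4-week library, and without replicate 5 their adjusted p were 0.146, 0.240 and 0.250. Interferon responses showed 0 calls in 50 type I and 33 interferon gamma genes (medians log2 -0.22 and -0.22). The members of lowest p were Ifih1, a sensor of double-stranded RNA, and Pml, of nuclear bodies (adjusted p = 0.136 and 0.152), and Socs1, the brake on interferon receptors (log2 -0.82, adjusted p = 0.0762). Ido1, a tryptophan-degrading enzyme, was at 0 in all 3 libraries of 4 weeks and in 1 of 2 weeks. Of 15 MHC class II genes 0 passed: H2-Ab1, a class II beta chain, had 134, 64.0 and 137 CPM at 4 weeks, against 48.3, 43.0, 41.5 and 44.8 CPM at 2 weeks (log2 1.39, SE 0.58, adjusted p = 0.182), higher in every 4-week library, and H2-Ob, a modulator of peptide loading, had adjusted p = 0.294. MHC class I and immunoproteasome genes (22 measured, 0 called) had Psmb9 and Psme2, an immunoproteasome subunit and a proteasome activator, at log2 0.57 and 0.52 (adjusted p = 0.0922 and 0.0978).

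Among lineage lists, 3 had 1 member each that rose, beside 1.67% of all genes tested, so in the longer lists the share called was near that of all genes. Nkg7, a granule protein of cytotoxic cells, was the 1 that rose among 10 T and NK genes, with 98.2, 55.4 and 76.6 CPM at 4 weeks, against 27.5, 32.3, 19.7 and 20.5 CPM at 2 weeks (log2 1.69, SE 0.43, adjusted p = 0.0428). Icam4, an adhesion protein of red cells, rose among 44 erythroid genes, with 43.4, 26.8 and 38.4 CPM at 4 weeks, against 19.5, 14.6, 14.1 and 19.8 CPM at 2 weeks (log2 1.16, SE 0.29, adjusted p = 0.0411). Vamp5, a vesicle fusion protein, rose among 33 megakaryocyte and platelet genes, with 257, 188 and 179 CPM at 4 weeks, against 160.1, 149, 158 and 144 CPM at 2 weeks (log2 0.51, SE 0.13, adjusted p = 0.0436). None of the 3 overlapped between the times, as in nearly all called genes, and none passed without replicate 5 (adjusted p = 0.279, 0.279 and 0.364). Other members did not pass, such as Pf4, the platelet chemokine, with 443, 154 and 199.8 CPM at 4 weeks, against 112, 46.8, 78.0 and 130.2 CPM at 2 weeks (log2 1.61, SE 0.74, adjusted p = 0.233). Gata1, the erythroid and megakaryocyte factor, had 144, 96.7 and 125 CPM at 4 weeks, against 78.4, 42.5, 51.1 and 81.0 CPM at 2 weeks (log2 1.01, SE 0.38, adjusted p = 0.141). Both were picked after their values were seen. Of the 33 megakaryocyte and platelet genes, 13 had estimates below 0, and the list median was log2 0.11, or -0.069 without replicate 5. Of the 44 erythroid genes, 16 had estimates below 0, and the list median was log2 0.20, or 0.13 without replicate 5. The summed levels of both lists overlapped between the times. Eng, given above, was the 1 that fell among the 14 endothelial and stromal genes (beside 0.792% of all genes tested). No member passed among 10 B lineage, 20 macrophage or dendritic, 37 neutrophil or monocyte and 16 mast cell, basophil or eosinophil genes. Their members of lowest p were, in the order neutrophil, mast cell, macrophage and B lineage, Cd14 and Ccr2 (adjusted p = 0.0791 and 0.104), Csrp3 and Srgn (0.294 and 0.465), Vcam1 and Siglech (0.203 and 0.216) and Igkc and Ighm (0.0585 and 0.108). Inflammatory chemokines and cytokines (23 measured), cytokine and growth factor receptors (39) and niche adhesion and homing genes (33) also had 0 calls. Tnfsf10, a death ligand, and Ccl4, a chemokine, gave adjusted p = 0.217 and 0.225. Ifnar1, an interferon receptor chain, and Insr, the insulin receptor, gave 0.0655 and 0.111. Adgrg1, an adhesion receptor abundant in stem cells, and Alcam, an adhesion protein, gave 0.0515 and 0.0765. Adgrg1 had 1536, 2087 and 2082 CPM at 4 weeks, against 2493, 2599, 2444 and 2631 CPM at 2 weeks, with no overlap. The plot of list medians sets all 32 lists side by side.

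**Figure D4:**
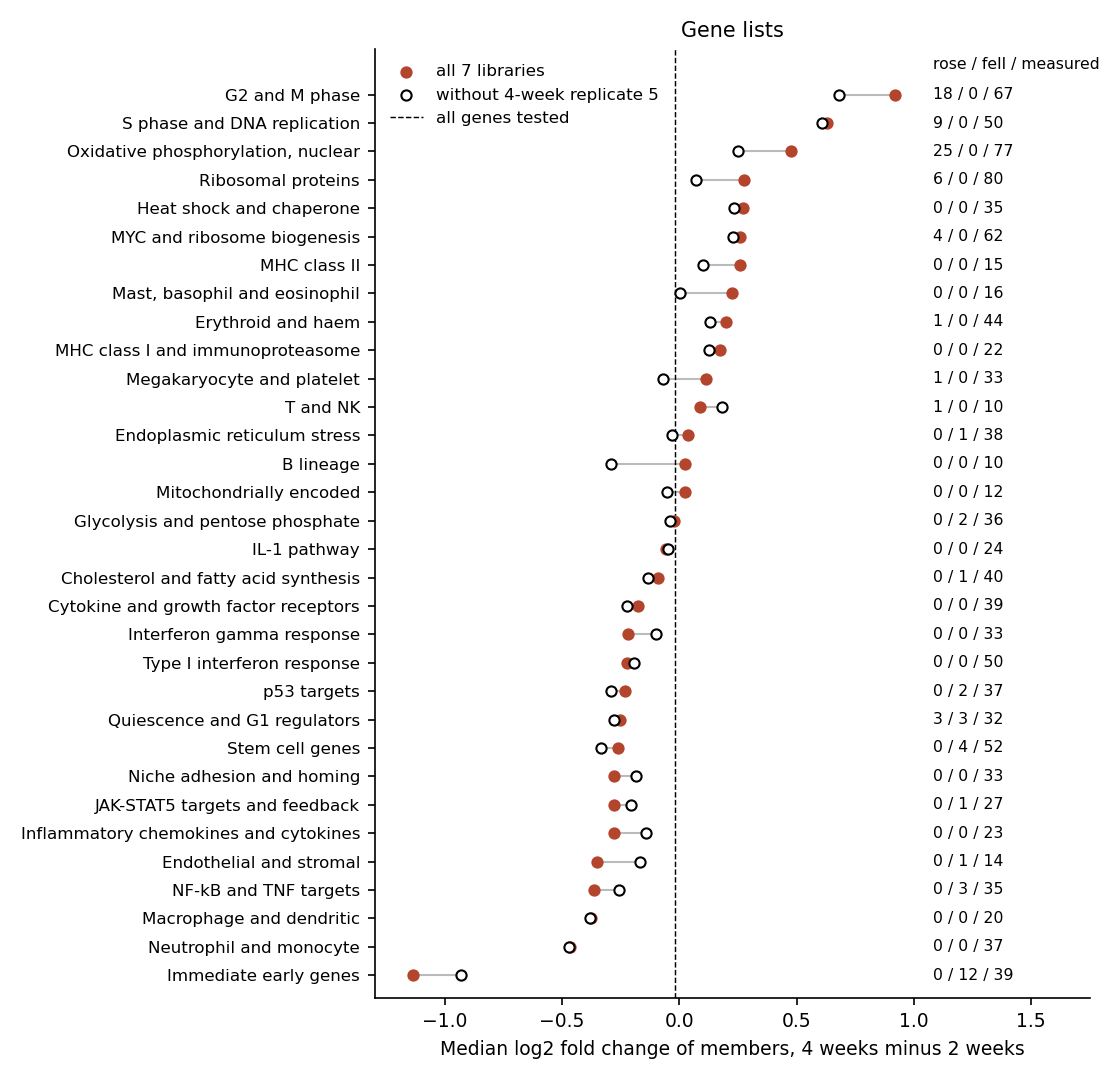
Median log2 fold change of the measured members of each of 32 gene lists, 4 weeks minus 2 weeks. Filled points use all 7 Il1r1-null libraries and open points leave out 4-week replicate 5; the dashed line is the median of all genes tested (-0.019), and the numbers at the right are members that rose, fell and were measured. G2 and M phase (0.92) and immediate early genes (-1.13) mark the ends.

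Whether the change between the times differed in Il1r1-null cells was tested against V617F cells without either deletion and against Il1b-null cells, in which the same batches hold the same times. In neither comparison did a gene pass (0 of 13630, 0%, edgeR). At an unadjusted p under 0.05 there were 725 and 862 genes (5.32% and 6.32%). DESeq2 called 22 and 34, and limma-voom 5 and 0. In simulated counts the 2 comparisons recovered 36 and 35 of 100 genes changed by log2 1. Of 100 changed by log2 2 they recovered 68 and 69, so real differences could be missed. Of the 227 genes called higher in Il1r1-null cells (median log2 0.64), 224 (98.7%) had estimates above 0 in Il1b-null cells (median 0.42) and 215 (94.7%) in cells without either deletion (median 0.25). Of the 108 called lower (median log2 -1.09), 99 (91.7%) had estimates below 0 in Il1b-null cells (median -0.56) and 93 (86.1%) in cells without either deletion (median -0.32). Over all genes tested the sign was shared by 65.4% and 64.8%. These are descriptions, since the genes were chosen on the Il1r1-null libraries. G2 and M phase genes had a median of log2 0.92 in Il1r1-null cells, 0.36 in Il1b-null cells and 0.16 in cells without either deletion, and S phase genes 0.63, 0.43 and 0.29. Summed G2 and M levels at 4 weeks ran from 7258 to 11570.4 CPM in Il1r1-null, 4716 to 8252 in Il1b-null and 4539 to 7374 CPM in cells without either deletion, and the libraries overlapped across genotypes.

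The genes of lowest p in these comparisons did not pass and are given for their size. Against cells without either deletion, Ect2, an exchange factor needed for cytokinesis, changed by log2 1.20 in Il1r1-null cells and -0.74 in the others (difference 1.94, SE 0.47, adjusted p = 0.579). Sec63 changed by log2 -0.56 and 0.20 (difference -0.76, adjusted p = 0.232), and Sult1a1 by -3.43 and 0.16 (difference -3.60, adjusted p = 0.579). Differences of -0.82 for Treml2, a receptor of the TREM family, -3.68 for Serpina3f, a serine protease inhibitor, and -1.09 for Zfp874a had adjusted p of 0.329, 0.329 and 0.495, and those of Bod1, Meaf6, Rnaseh2c and Rnpep lay between 0.66 and 0.83 (adjusted p = 0.579 to 0.658). Serpina3f changed by log2 -0.95 in Il1r1-null cells and by 2.73 in cells without either deletion, so most of its difference lay in the latter. Against Il1b-null cells, Cpt1a, the carnitine transferase that admits fatty acids to mitochondria, had 89.3, 109 and 119 CPM at 4 weeks, against 190.2, 202, 179.6 and 153 CPM at 2 weeks in Il1r1-null cells and changed by log2 -0.73 there and 0.39 in Il1b-null cells (difference -1.12, SE 0.20, adjusted p = 0.106). Chrnb1, a muscle acetylcholine receptor subunit, changed by -1.58 and -0.017 (difference -1.57, adjusted p = 0.640). Dip2c, Larp4 and Slc39a8 had differences of -2.36, -0.67 and -1.78, and Pja1, Purb, Ccdc57 and Gm4841 positive ones of 0.71 to 2.83. Arhgef16 gave 12.5, 1.11 and 0.953 CPM at 4 weeks, against 6.18, 0.908, 1.87 and 2.46 CPM at 2 weeks in Il1r1-null cells, and no fold is given for it. These 8 had adjusted p of 0.106 to 0.640.

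**Figure D5:**
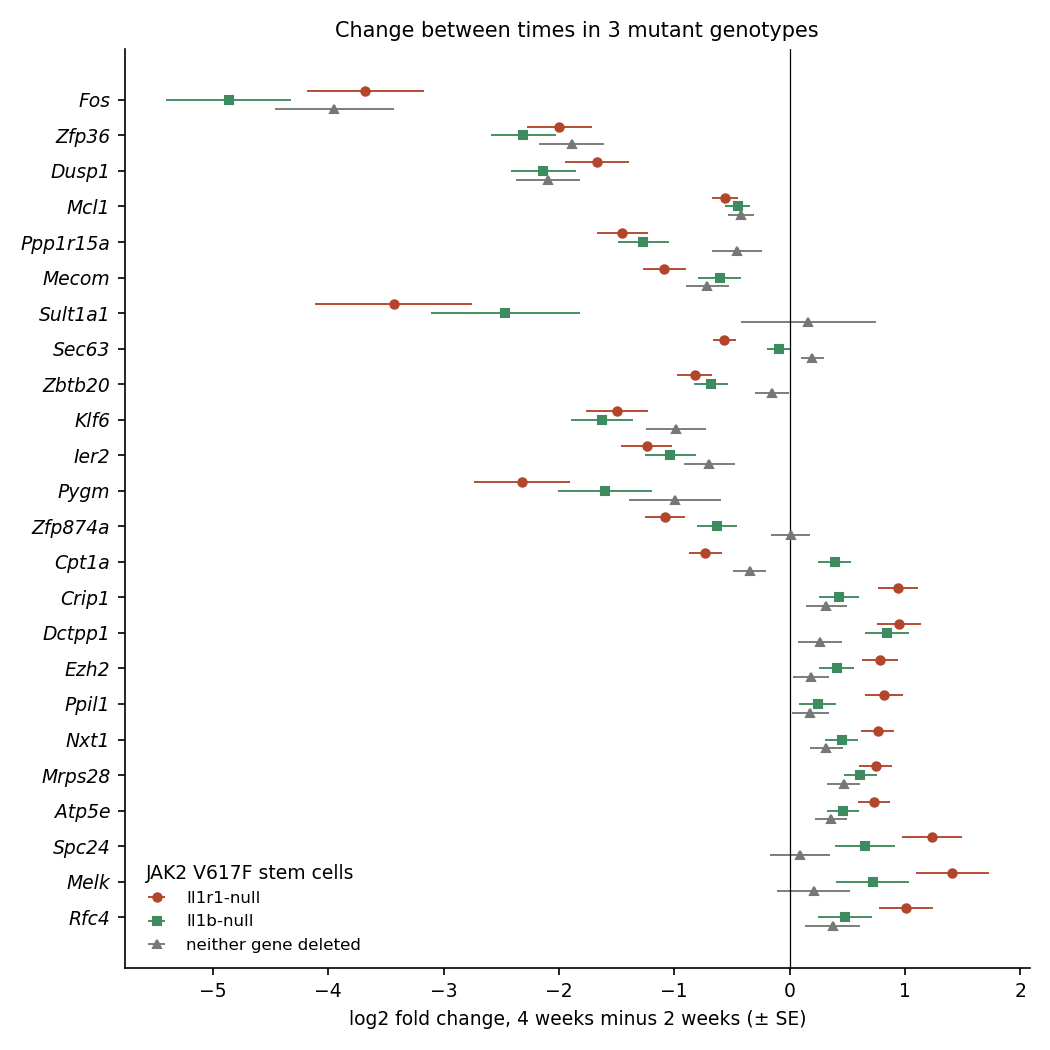
Change between times of 24 genes in 3 genotypes of V617F stem cells. Points are edgeR log2 fold changes, 4 weeks minus 2 weeks, with their SE as bars: Il1r1-null (red circles, top of each row), Il1b-null (green squares) and neither gene deleted (grey triangles). Fos, Zfp36 and Dusp1 lie far below 0 in all 3 genotypes, whereas Cpt1a was at -0.73 in Il1r1-null and 0.39 in Il1b-null cells.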

How the data were processed

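Polyadenylated RNA of sorted stem cells was made into unstranded SMART-Seq v4 libraries, per the labels' protocols. The authors deposited raw counts per gene for 25 libraries on mm10; FastQC 0.11.5, STAR 2.7.10a, featureCounts and R 4.2.2 are named in the submitters' processing notes. Without strand, reads of overlapping and antisense genes cannot be told apart. The table held 13641 genes, each with at least 32 counts in some library, and 4 engineered sequences, which were kept out of library totals and gene tests. Among the 7 Il1r1-null libraries no 2 replicates were 1 library: the lowest chi-square per degree of freedom between replicates was 32.2.

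CPM is the count divided by the library's gene total, times 1000000. Here edgeR 4.0.16 in R 4.3.3 fitted the 7 groups of 25 libraries in a robust quasi-likelihood model after filterByExpr, with TMM factors. In all, 13630 genes were tested, and p was adjusted by Benjamini-Hochberg over all of them, with calls at 0.05. SE is the log2 fold change divided by the root of F. Engineered sequences were tested by exact permutation on log2(CPM + 1) (scipy 1.17.1). The alternatives tried were DESeq2 1.42.0, voom with quality weights in limma 3.58.1, scaling by upper quartiles or by RLE, no filter or a filter of 5 CPM in 3 libraries, only the groups compared, a replicate block and each library left out. Fits without 3 libraries that stood apart and with offsets for gene length or GC content were added after the data were seen. The fits were tested on simulated data with known changes. The comparison and the 32 gene lists were chosen with earlier results of these data known. Named genes were Il1r1, Il1b, Jak2, Socs2, Cish and Pim1, the 12 called genes of lowest p per direction with a mean log2 CPM of at least 1, up to 3 called members per list or 2 not passing, and 5 per direction in each comparison of time changes. Other members, and the genes left without replicate 5, were named after their values were seen. Some genes that this rule names are not reported here. Names and coordinates came from GENCODE (GRCm38) and promoters from RefSeq (GRCm38.p6).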

Additional observations from a re-analysis of the deposited data

Results flagged for a closer look

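Of 129 values checked in the 2-week group, 8 had a library that stood far from the other 3; chance gives about 1 in 20. The 3 libraries of 4 weeks are too few for this check. For Igkc, an antibody light chain gene, replicate 2 had 7.52 CPM (3.09 as log2(CPM + 1)), where the others had 0.156 to 0.529 CPM. Fads2 was low in replicate 1, at 195 CPM (7.61 on that scale), beside 271 to 285 CPM in the others, and Cct2 low in replicate 2, at 219 CPM (7.78), beside 255 to 261 CPM. In summed lists, replicate 1 was low for T and NK genes (175 CPM, 7.46, beside 186 to 187 CPM) and high for oxidative phosphorylation (12837 CPM, 13.65, beside 12456 to 12503 CPM). Replicate 2 was high for endothelial and stromal genes (457 CPM, 8.84, beside 411 to 416 CPM). Replicate 4 was high for p53 targets (2202 CPM, 11.11, beside 2067 to 2081 CPM) and low for the GIMAP family (771 CPM, 9.59, beside 999 to 1034 CPM). In each of these lists the 4-week libraries lay on 1 side of all 4 libraries of 2 weeks.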

How the results depend on the processing

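The count of genes called between the times (335) was 280 with RLE and 224 with upper-quartile factors, where 120 were higher and 104 lower (53.6% higher, beside 67.8%), 335 with no filter, 425 with at least 5 CPM in 3 libraries and 362 with GC offsets. It was 928 by DESeq2, 510 by limma voom, 39 with the groups compared alone (14 higher and 25 lower), 119 (23 higher and 96 lower) without the 3 libraries standing apart (V617F 4-week 6, Il1b-null 4-week 5 and Il1r1-null 4-week 5) and 150 with gene length offsets, and 10 (without 4-week 5) to 827 (without 4-week 7) with 1 library left out. The 0 calls of the difference to cells without either deletion became 22 (DESeq2), 5 (voom), 32 (without the 3 libraries) and 0 to 2 with 1 library left out (2 without V617F 4-week 6 or Il1r1-null 4-week 7); those of the difference to Il1b-null cells became 34 (DESeq2) and 0 to 12 (12 without Il1b-null 4-week 6). The 3 calls in cells without either deletion became 46 (DESeq2), 155 (voom), 5 (filter of 5 CPM), 6 (groups compared), 14 (without the 3 libraries) and 2 to 8 with 1 left out, and the 102 in Il1b-null cells 607 (DESeq2), 4 (groups compared), 45 (length offsets) and 8 (without 4-week 5) to 516 (without 4-week 7). Fos, Ppp1r15a and Zbtb20 passed in all 17 alternatives. Srgn (log2 0.19, not passing) was -0.019 by voom, -0.0201 without the 3 libraries and -0.029 to 0.32 with 1 library left out, and CreERT2 (log2 -0.089) was -0.25 (without 2-week 3) to 0.057 (without 2-week 2). The causes were not tested. No paired analysis was possible because the 2-week (1 to 4) and 4-week (5 to 7) libraries share no replicate numbers. For the differences between genotypes the replicate block left 0 calls in both, and same-numbered libraries correlated at -0.15 to 0.080, so the numbers do not pair them.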

Other observations

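Lists chosen after the values were seen gave the following, with no test of a list (calls over all genes tested: 1.67% higher and 0.792% lower). Core proteins of the spliceosomal snRNPs, which recognise and join splice sites, had 8 of 23 members higher and 0 lower (median log2 0.43, and 0.31 without 4-week replicate 5). Proteasome subunits had 6 of 31 higher and 0 lower (median 0.33, and 0.18 without it), and mitochondrial ribosomal proteins 9 of 78 higher and 0 lower (median 0.37, and 0.19). Without that library 0 members of these 3 lists passed. Replication-dependent histones, whose messages lack a poly(A) tail and whose near-identical copies can share reads, had 4 of 40 higher (Hist1h1b, Hist1h2ao, Hist1h2ap and Hist1h4d) and a median of log2 0.73, or 0.36 without it. Hist1h1b, a linker histone, had 18.8, 8.52 and 9.22 CPM at 4 weeks, against 6.32, 3.27, 2.85 and 2.40 CPM at 2 weeks (log2 1.79, SE 0.46, adjusted p = 0.0431).

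GIMAP genes, a cluster of lymphoid GTPases also expressed in stem cells, had 2 of 8 members lower and a median of log2 -0.69. Gimap6 had 169.7, 223 and 182 CPM at 4 weeks, against 336, 403, 359.7 and 287 CPM at 2 weeks (log2 -0.80, SE 0.17, adjusted p = 0.0239), and Gimap8 17.6, 28.5 and 24.7 CPM at 4 weeks, against 84.5, 49.2, 43.0 and 44.0 CPM at 2 weeks (log2 -1.18, SE 0.22, adjusted p = 0.0163). The summed level was 572, 636 and 527 CPM at 4 weeks, against 999, 1034, 1020.2 and 771 CPM at 2 weeks, so that no 4-week library reached a 2-week library.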
